A study of Mus musculus with 6 samples.

Results

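Fibroblast growth factors (FGFs) are secreted proteins that act on receptor tyrosine kinases at the surface of neighboring cells, and heparan sulfate on the cell surface holds ligand and receptor together. Fgf2 and Fgf1 are classical growth factors for endothelial cells, and Fgfr1 is the receptor through which they are best known to act there. Fgf7 and Fgf10 are made mainly by fibroblasts and other mesenchymal cells and act on the epithelial isoform of Fgfr2, a route by which the stroma of the mammary gland signals to its epithelium. The genes described are the ligands Fgf1, Fgf2, Fgf7 and Fgf10 and the receptors Fgfr1, Fgfr2 and Fgfr3, measured in CD31-sorted mammary cells. They were chosen by name. The platform annotation gave them 15 probe sets that name exactly 1 gene, out of 34945 such probe sets on the array, and the 7 genes stand among 18193 that had at least 1. Where a gene had several, the one with the brightest average signal stood for it.

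The sorted cells came from FVB/N mice aged 9 weeks that carried PyMT, the polyoma middle T oncogene expressed in the mammary epithelium. In 3 samples the genotype was PyMT;Fsp-cre;Ets2db/loxP (called deleted), in which Cre recombinase under the promoter of Fsp1 removes the floxed allele of the transcription factor Ets2 in fibroblasts. The other 3 samples were PyMT;Ets2db/loxP without Cre (called control). Both groups carried the db allele of Ets2, a conventional knockout of its DNA-binding domain, beside the floxed allele, so the control mice were not wild type. Each sample was hybridized to 1 Affymetrix array for mouse transcripts. The source field of the control samples says that no oncogene was present, while title, description and genotype name PyMT, and the genotype was used.

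All values are log2 signals from RMA (Robust Multichip Average, which corrects, scales and summarizes the probes of an array), and differences were taken as deleted minus control. The arrays were alike in scale, with median signals of 7.02 to 7.07, and the median probe set had a mean of 7.03. Probe sets differ in how well they hybridize, so a signal above or below the median probe set describes brightness and does not rank transcripts by abundance. Ets2 differed by 0.02 at its brightest probe set, but the deletion was aimed at fibroblasts, so this does not check the genotype. Pecam1, which encodes the sorted antigen CD31, read 11.93, 11.27 and 11.88 in deleted samples and 11.58, 11.49 and 10.83 in control samples. All 10 endothelial markers examined were brighter than the median probe set, and so were 12 of 12 epithelial, 10 of 10 macrophage and 13 of 16 fibroblast markers. The same held for 8 of 9 pericyte and smooth muscle, 5 of 7 pan-leukocyte and 3 of 8 adipocyte markers. Of all 18193 genes, each at its brightest probe set, 11288 were brighter than the median probe set. Epcam, which encodes an epithelial adhesion molecule, read 12.44 to 12.50 in deleted and 12.00 to 12.54 in control samples. The cell type that gave the transcripts described below was not determined, and in bulk RNA fewer cells of a type cannot be told apart from less RNA per cell.

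The level of no FGF ligand or receptor differed between the groups beyond the spread of the arrays. Of the 15 probe sets, 0 passed limma's moderated test at an adjusted p under 0.05, against 0% of all 45037 probe sets tested, and 0 reached an unadjusted p under 0.05, against 2.07% of all probe sets. The smallest unadjusted p among them in limma's test was 0.191. In 0 of the 15 were the groups without overlap, against 6.44% of all probe sets. The representative probe sets of Fgf1, Fgf2, Fgfr1, Fgfr2 and Fgfr3 had negative and those of Fgf7 and Fgf10 positive differences. For 6 of the 7 genes the 95% interval of the difference lay within 1 log2 unit of 0, that is, it held no 2-fold change in either direction. Such an interval was found for 89.5% of all genes, and over probe sets for 13 of the 15 against 87.0% of all. Fgf7 was the exception, with an interval from -0.71 to 1.05. Fgfr2 was a near case, with a lower limit of -0.99 and a difference of -0.51 without deleted replicate 3. The count over genes takes the brightest probe set, and the interval of the Fgf1 probe set 1441042_at reached 1.35. RMA narrows differences at dim probe sets, such as those of Fgf2 and Fgf10, so their intervals say less about the transcripts.

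**Figure D1:**
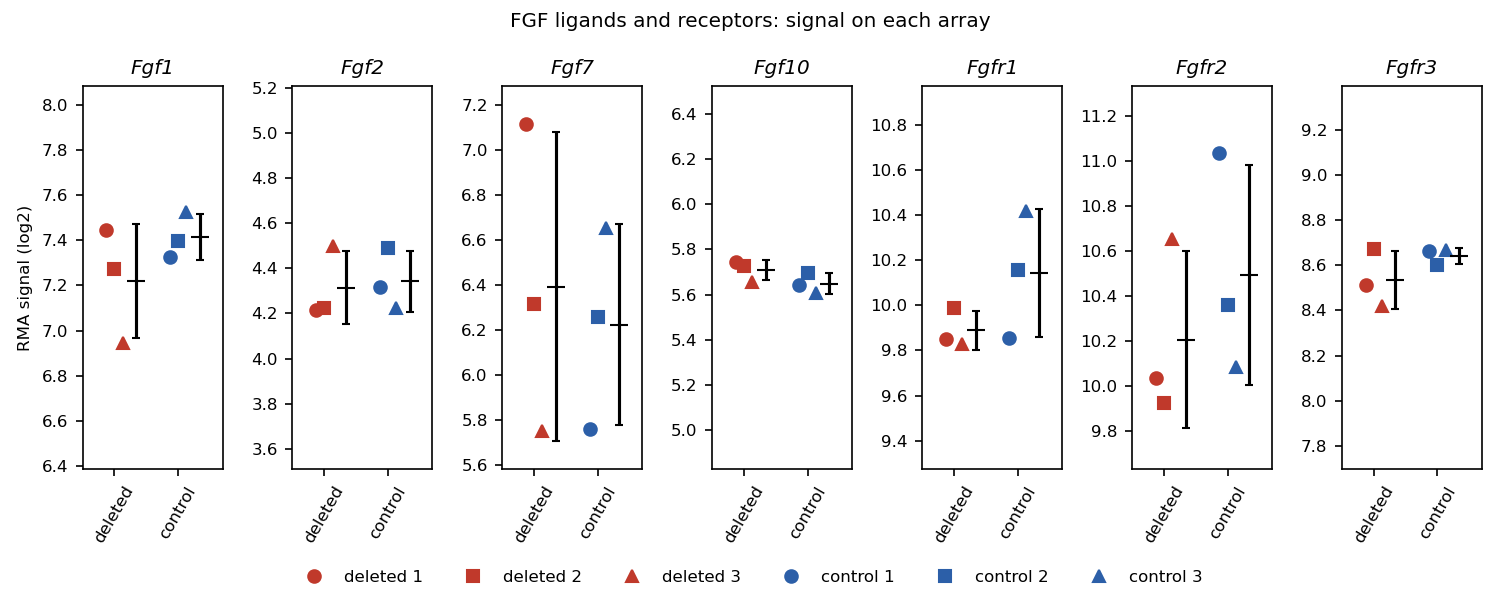
RMA signal (log2, vertical axis, spanning the same number of log2 units in every panel) of the representative probe set of each gene on the deleted arrays (red) and the control arrays (blue), with black bars beside them for the group mean and its SD (n = 3). The groups overlap for all 7 genes, Fgf7 and Fgfr2 spread most and Fgf10 least.

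Among the receptors, Fgfr1 was the gene whose 3 probe sets all had a difference of the same sign. Its brightest probe set, 1424050_s_at, read 9.85, 9.99 and 9.83 in deleted samples and 9.85, 10.16 and 10.42 in control samples. The 3 deleted arrays were close together, control replicate 1 lay among them, and the other two control arrays were above all of them. The mean was 9.89 ± 0.09 in deleted and 10.14 ± 0.28 in control samples (SD, n = 3 each), a difference of -0.25 (SE 0.18) with a 95% interval from -0.67 to 0.16 and an adjusted p of 0.9999 in limma's test. The second probe set, 1436551_at, differed by -0.21 and the third, 1425911_a_at, by -0.17, with intervals that also included 0.

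Single arrays carried part of this difference. Control replicate 3 had the highest signal at 1424050_s_at and also at 1436551_at, where it read 8.51, and without it the Fgfr1 difference was -0.12. Without control replicate 1 it was -0.40. At 1425911_a_at control replicate 3 read 8.001, the lowest of the control arrays. Deleted replicate 2 was the lowest array at 1436551_at (7.79) and at 1425911_a_at (7.77) but the highest deleted array at 1424050_s_at. Control replicate 3 also had the largest excess of 3′ over 5′ signal for the Gapdh control probe sets, 1.31 against 0.75 to 1.01 on the other arrays, and for beta-actin, 1.67 against 0.99 to 1.29, which is a sign of RNA quality. The part of RNA quality in the Fgfr1 values was not tested.

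Fgfr2, the receptor of Fgf7 and Fgf10 in its epithelial isoform, had the largest difference of the 7 genes at its brightest probe set and also a wide spread within each group. Probe set 1433489_s_at read 10.04, 9.93 and 10.66 in deleted samples and 11.04, 10.36 and 10.09 in control samples. The groups overlapped, with control replicate 1 and deleted replicate 3 the brightest arrays. Means were 10.21 ± 0.39 in deleted and 10.50 ± 0.49 in control samples (SD, n = 3 each). The difference of -0.29 (SE 0.30) had a 95% interval from -0.99 to 0.41 and an adjusted p of 0.9999 in limma's test. It rested on single arrays, at -0.02 without control replicate 1 and -0.51 without deleted replicate 3.

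The other Fgfr2 probe sets gave smaller differences of either sign. At 1420847_a_at the same control replicate 1 and deleted replicate 3 were again the brightest, at 6.85 and 6.74, and the groups differed by -0.05. The dim probe set 1443211_at differed by 0.15, with arrays from 3.89 to 4.89 and another order of the arrays, deleted replicate 1 being the brightest at 4.89. The annotation does not say which Fgfr2 isoform a probe set reads, so the epithelial and mesenchymal isoforms were not told apart. Probe sets whose names end in s_at, as do the brightest ones of Fgfr1 and Fgfr2, can hybridize to more than 1 transcript.

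Fgfr3, a receptor best known for restraining bone growth, was among the most even of the genes. Probe set 1421841_at read 8.51, 8.67 and 8.42 in deleted samples and 8.66, 8.60 and 8.67 in control samples. Deleted replicate 2 was the highest of all 6 arrays and the other 2 deleted arrays were the lowest. The difference was -0.11 (SE 0.14) with a 95% interval from -0.43 to 0.21, and it was -0.18 without deleted replicate 2 and -0.051 without deleted replicate 3. Its dimmer probe set, 1425796_a_at, differed by 0.10 and so had the opposite sign, with all arrays between 6.09 and 6.42.

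**Figure D2:**
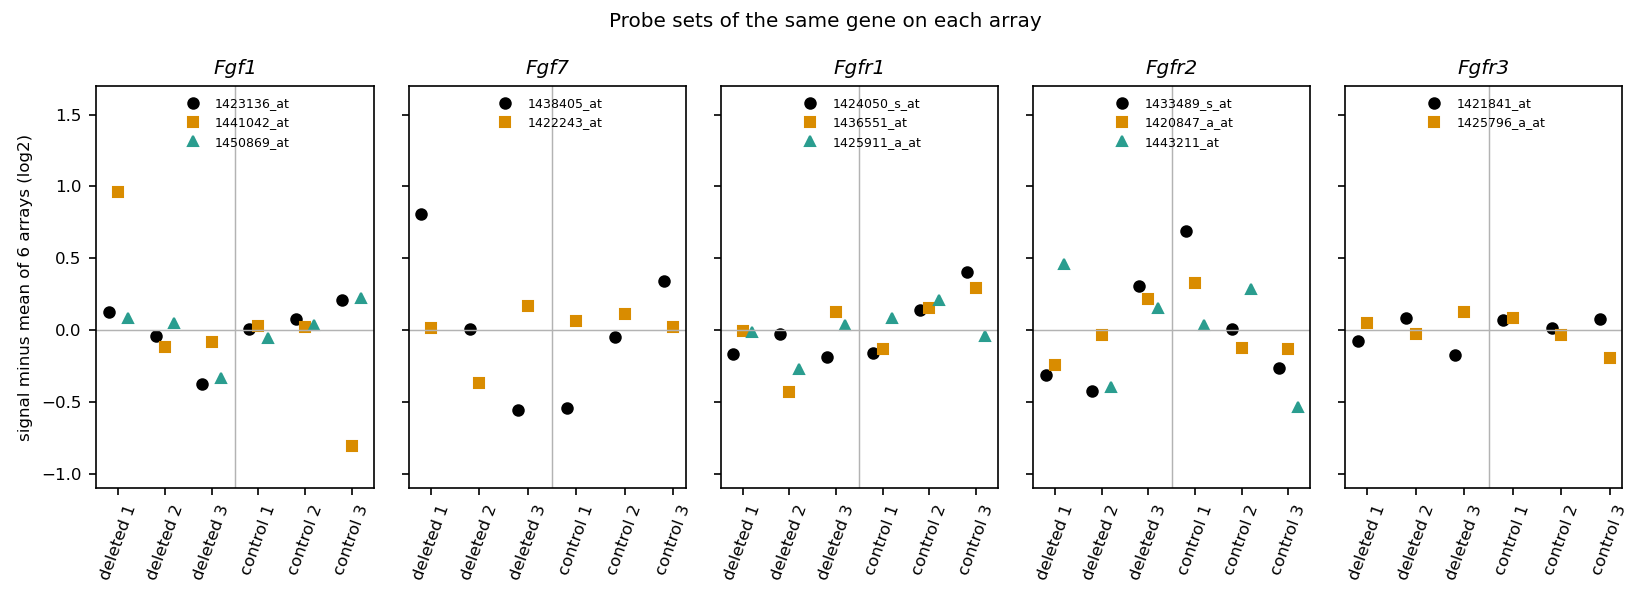
Signal of every probe set of the 5 genes with more than 1, minus its own mean over the 6 arrays (log2, vertical axis), for the deleted arrays (left of the gray line) and the control arrays (right of it), with a color and symbol for each probe set. The brightest probe sets of Fgfr2 share their highest arrays, control replicate 1 and deleted replicate 3, whereas the probe sets of Fgf7 and the Fgf1 probe set 1441042_at do not follow their partners.

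Among the ligands, Fgf1, which binds all FGF receptors, had probe sets that disagreed. Probe set 1423136_at read 7.44, 7.27 and 6.95 in deleted samples and 7.33, 7.40 and 7.52 in control samples. Deleted replicate 3 was lowest, control replicate 3 highest, and deleted replicate 1 was the second highest array. The difference was -0.19 (SE 0.17) with a 95% interval from -0.59 to 0.21, and it was -0.31 without deleted replicate 1 and -0.056 without deleted replicate 3. Probe set 1450869_at, which the annotation draws from the same GenBank entry, ranked the same arrays highest and lowest and differed by -0.13.

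The remaining Fgf1 probe set, 1441042_at, pointed the other way. Its signal was 6.90, 5.82 and 5.85 in deleted samples and 5.96, 5.96 and 5.13 in control samples. Deleted replicate 1 stood above and control replicate 3 below the other 4 arrays, which lay close together. The difference of 0.51 (SE 0.36) was the largest in size of the 15 probe sets, with a 95% interval from -0.33 to 1.35. Averaged over its 3 probe sets, Fgf1 differed by 0.060.

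Fgf2, a ligand stored in the extracellular matrix and a potent angiogenic factor, gave a dim signal on every array. Its only probe set, 1449826_a_at, read 4.22, 4.22 and 4.50 in deleted samples and 4.32, 4.49 and 4.22 in control samples. Deleted replicate 3 and control replicate 2 were the highest and the groups overlapped fully. The difference was -0.029 (SE 0.15) with a 95% interval from -0.39 to 0.33. RMA narrows differences at dim probe sets, and only 15.9% of all probe sets were dimmer than that of Fgf2.

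Fgf7, also known as keratinocyte growth factor, varied most between arrays. Probe set 1438405_at read 7.11, 6.31 and 5.75 in deleted samples and 5.76, 6.26 and 6.65 in control samples. The highest and the lowest array were both deleted ones, and the control arrays lay between them. Over the 6 arrays the signal spanned 1.36, and only 6.96% of all genes spanned more. The means were 6.39 ± 0.68 in deleted and 6.22 ± 0.45 in control samples (SD, n = 3 each), a difference of 0.17 (SE 0.37). Without deleted replicate 1 the difference was -0.19 and without deleted replicate 3 it was 0.49, so its sign depended on single arrays. The dimmer probe set 1422243_at differed by -0.13 and was lowest on deleted replicate 2, at 4.25, with the other arrays at 4.63 to 4.79.

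Fgf10, which like Fgf7 is made by mesenchyme and is required for mammary bud formation in the mouse embryo, was the most even gene. Its only probe set, 1420690_at, read 5.74, 5.72 and 5.66 in deleted samples and 5.64, 5.70 and 5.61 in control samples. Control replicate 2 lay within the range of the deleted arrays and the other two control arrays just below it. The difference was 0.060 (SE 0.13) with a 95% interval from -0.23 to 0.35. All 6 arrays lay within 0.14 of each other, and 99.1% of all genes spanned more. This probe set was also dim, with 33.2% of all probe sets dimmer, and RMA narrows differences at dim probe sets. The median span of a gene was 0.58. Fgfr1 and Fgf1 were close to it, with spans of 0.59 and 0.58, while Fgf2 and Fgfr3 spanned 0.28 and 0.26 and Fgfr2 spanned 1.11.

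**Figure D3:**
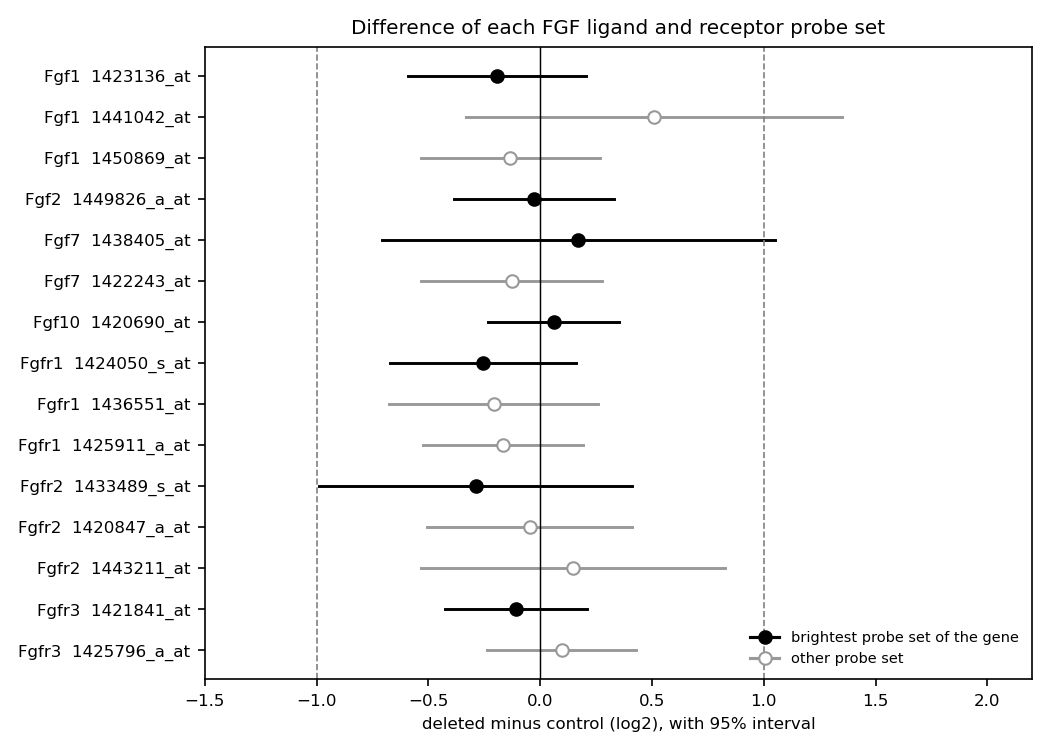
Difference between the deleted and the control mean (log2, horizontal axis) of each of the 15 probe sets, with lines for the 95% interval of limma's fit, black for the brightest probe set of a gene and gray for the others. Every interval includes 0, and the dashed lines mark 1 log2 unit, a 2-fold change, which 13 of the 15 intervals do not reach.

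The genes whose values ran closest to those of the 3 members with the largest differences were looked for among genes brighter than the median gene, by the root mean square distance of the centered signals over the 6 arrays. For Fgfr1 these were Slc20a2, a phosphate transporter, at a distance of 0.02 log2 units, Dcp1b, a factor of mRNA decapping, at 0.04, and Kif1c, a kinesin motor, at 0.04, where the median gene lay at 0.28. For Fgfr2 they were Fzd1, a Wnt receptor, at 0.10, E030024N20Rik at 0.10 and Slc7a2, a transporter of cationic amino acids, at 0.12, against a median of 0.45. For Fgf1 they were Sap130 at 0.04, Xylb at 0.05 and Pik3cb, a catalytic subunit of phosphoinositide 3-kinase, at 0.05, against a median of 0.26. The search covered 9095 genes for Fgfr1 and Fgfr2 and 9096 for Fgf1, over only 6 arrays. Fzd1 read 8.99, 9.15 and 9.66 in deleted and 10.05, 9.52 and 9.09 in control samples. That it was highest on control replicate 1, like Fgfr2, follows from how it was picked.

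The rest of the FGF pathway was described by 10 lists, of which 90 of 98 genes had a probe set that names exactly 1 gene. After adjustment, limma called 0 of the 90, against 0% of all genes. At an unadjusted p under 0.05 there was 1 gene, Klotho (Kl), against 1.79% of all genes. The groups were without overlap for 5 of the 90 genes, or 5.56%, against 6.07% of all genes. Of these, 4 had a positive and 1 a negative difference, where 3.36% of all genes were without overlap in the positive and 2.70% in the negative direction. The median difference over the 90 genes was 0.03, and that over all genes was 0.00.

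**Figure D4:**
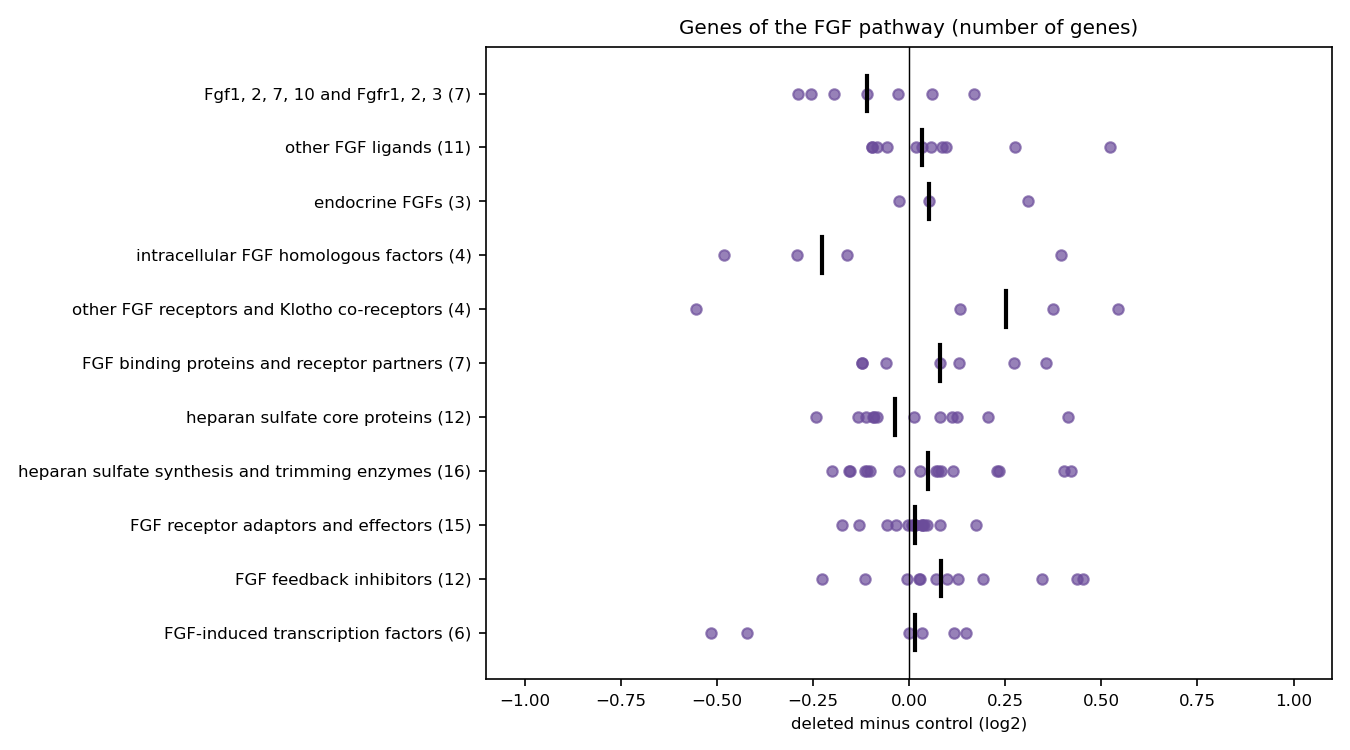
Difference between the deleted and the control mean (log2, horizontal axis) for the representative probe set of the 7 genes and of each measured gene in the 10 pathway lists, with a black bar for the median of each list. All differences lie between -0.55 and 0.54, and the medians between -0.23 and 0.25.

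Among the 11 other paracrine ligands, 7 had positive and 4 negative differences, with a median of 0.03. Fgf18, a mesenchymal ligand of bone and lung development, differed by 0.52 (SE 0.29), and its groups overlapped. Fgf16 read 4.45, 4.33 and 4.48 in deleted samples and 4.02, 4.22 and 4.20 in control samples. The groups were apart at this dim probe set, with a difference of 0.27 and an adjusted p of 0.9999 in limma's test. Of the endocrine FGFs, Fgf21, a metabolic hormone, read 5.45, 5.17 and 5.03 in deleted and 5.02, 4.95 and 4.75 in control samples, without overlap and with a difference of 0.31. Fgf23, the phosphate-regulating hormone of bone, differed by 0.05. Of the intracellular FGF homologous factors, which are not secreted, Fgf11 differed by -0.48 and Fgf13 by 0.40, and all 4 were dimmer than the median probe set.

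Kl, a co-receptor that lets FGF receptors bind Fgf23, had the smallest unadjusted p of the pathway genes. Its dim probe set read 5.72, 5.85 and 5.76 in deleted samples and 5.44, 5.41 and 5.35 in control samples. All deleted arrays were above all control arrays, and the difference was 0.37 (SE 0.13) with a 95% interval from 0.08 to 0.67, an unadjusted p of 0.021 and an adjusted p of 0.9999 in limma's test. The related co-receptor Klb differed by 0.54, but only deleted replicate 3, at 8.02, was above the other arrays, which lay between 6.03 and 6.36. Fgfrl1, an FGF receptor without a kinase domain, differed by -0.55 (SE 0.39), with 10.57 on control replicate 3 and 8.99 to 9.73 on the other arrays. Like Fgfr1 it was thus highest on control replicate 3.

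Proteins that carry or hold FGFs gave small differences as well. Fgfbp1, a carrier that frees FGFs from the matrix, read 7.03, 7.06 and 6.74 in deleted and 6.69, 6.72 and 6.60 in control samples, without overlap and with a difference of 0.27 (SE 0.15). Cdh2, the N-cadherin that can associate with Fgfr1, differed by 0.36. Among 12 core proteins of heparan sulfate, 6 had positive and 6 negative differences, with Gpc3 at 0.41 and Gpc1 at -0.24, both glypicans. Among 16 enzymes that build or trim heparan sulfate the median was 0.05, and the sulfotransferases Hs6st2 and Hs3st1 differed by 0.42 and 0.40 with overlap.

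Downstream of the receptors, the 15 adaptors and effectors stayed closest to 0. Their differences ran only from -0.18 to 0.17. Map2k1, the kinase MEK1, read 10.75, 10.77 and 10.70 in deleted and 10.98, 10.88 and 10.87 in control samples, without overlap, and Nras differed by 0.17. Of 12 feedback inhibitors of the pathway, 9 had positive differences, with a median of 0.08. Cbl, a ubiquitin ligase that acts on activated receptors, differed by 0.45 with arrays from 8.45 to 10.67, and Dusp4, a phosphatase of MAP kinases, by 0.44. Of 6 transcription factors that FGF signaling induces, Fosl1 differed by -0.52 and Etv5 by -0.42. Etv5 read 10.51, 10.35 and 10.80 in deleted and 11.22, 10.94 and 10.76 in control samples, with control replicate 3 below deleted replicate 3 (unadjusted p of 0.058 in limma's test). Each of these downstream genes had an adjusted p of 0.9999 in limma's test.

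Fibroblasts and other stromal cells also express FGF ligands and receptors, and lists of cell type markers were read on the same arrays. Of their genes, limma called 0 after adjustment, each with an adjusted p of 0.9999. The mean signal of 16 fibroblast markers was 9.53 to 9.62 in deleted and 9.83 to 10.10 in control samples, without overlap, and 15 of the 16 genes had negative differences, 6 of them without overlap (37.5% of the list, against 2.70% of all genes in that direction). Pdgfra, the PDGF receptor of fibroblasts, read 8.38, 8.01 and 8.39 in deleted and 8.98, 8.54 and 9.04 in control samples. The 10 macrophage markers averaged 9.05 to 9.68 in deleted and 9.74 to 10.33 in control samples, also without overlap. All 10 had negative differences, 5 of them without overlap (50% of the list, against 2.70% of all genes in that direction). The study had reported C1qb, a gene of this list, as lower in the deleted samples of the same data. The marker lists were chosen with earlier results of these data known, so such shares are not independent support. Adgre1, which encodes F4/80, differed by -0.91 with overlapping groups. All 7 pan-leukocyte markers had negative differences, 1 of them without overlap (14.3% of the list). Their means, 8.27 to 9.08 in deleted and 8.84 to 9.40 in control samples, overlapped. The 12 epithelial markers averaged 11.36 to 11.78 in deleted and 11.58 to 11.75 in control samples, and 9 had negative differences. The 10 endothelial markers averaged 12.21 to 12.63 in deleted and 12.05 to 12.48 in control samples, and 9 had positive differences. Both lists had means with overlap. Of the 9 pericyte and smooth muscle markers, 8 had positive differences. In this list 1 gene was without overlap (11.1%, against 3.36% of all genes in that direction). The list means, 9.990 to 10.04 in deleted and 9.55 to 9.989 in control samples, were only just without overlap. Adipoq, the adipocyte hormone adiponectin, read 4.76 to 6.99 in deleted and 4.93 to 6.74 in control samples. Control replicate 3 had the highest fibroblast and macrophage means and the lowest endothelial mean. The part of these cell types in the values of the FGF genes was not tested.

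**Figure D5:**
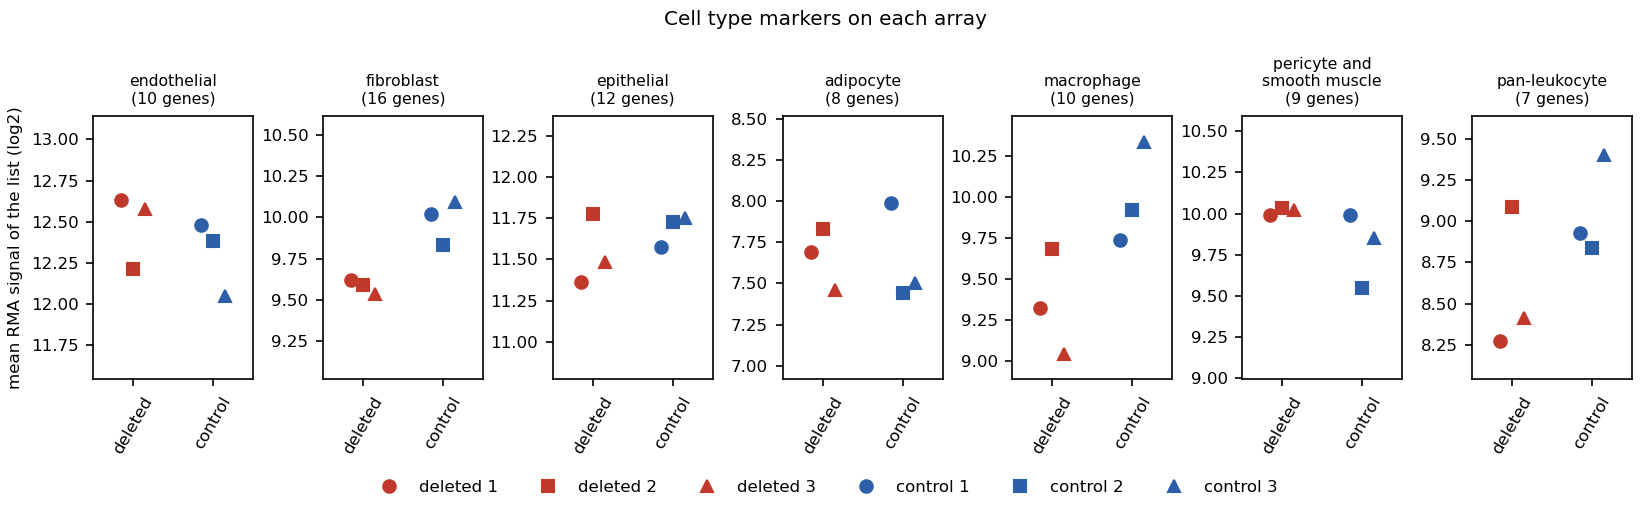
Mean RMA signal (log2, vertical axis, spanning the same number of log2 units in every panel) of each list of cell type markers on the deleted arrays (red) and the control arrays (blue), 1 point an array. The fibroblast and macrophage lists have groups without overlap. The groups of the pericyte and smooth muscle list are also without overlap but all but touch, at 9.990 to 10.04 in deleted and 9.55 to 9.989 in control samples.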

How the data were processed

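CD31-sorted mammary cells of PyMT mice were profiled in 6 samples, 3 deleted and 3 control samples grouped by genotype, which the study describes as biological replicates. The authors deposited a table of log2 values made by RMA, with background subtraction, normalization between arrays and a summary per probe set (version and annotation not given in the sources used here). No further scaling was applied. Of 45101 probe sets, 64 array controls were left out and the other 45037 were tested. The platform annotation gave 34945 probe sets exactly 1 gene, of which 34741 took their current symbol from a RefSeq gene table (matched by gene number). Genes of the pathway lists without such a probe set were not analysed here. No pair of arrays shared more than 0.218% of values.

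Groups were compared with limma 3.58.1 (lmFit and eBayes, two-sided, 6 arrays, no covariates) in R 4.3.3, with Benjamini-Hochberg adjustment over all tested probe sets at 0.05. The fit was tested on simulated data. Precision is set by having 3 arrays a group. The 95% interval of a difference extended 0.45 to each side for the median probe set. The text names all 7 genes, the 2 genes with the largest absolute difference in each pathway list, the 3 nearest patterns for each of 3 members, Pecam1, Ets2 and 4 markers of other cells. Kl falls outside this rule and was named after its values were seen. The members and lists were chosen with earlier results of these data known. Alternatives were a filter on dim probe sets, a trended and robust prior, array weights, centering, a further quantile normalization, a replicate block, an unmoderated test, the mean of a gene's probe sets, the thresholds the study used and leaving out each array.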

Additional observations from a re-analysis of the deposited data

How the results depend on the processing

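No FGF ligand or receptor passed an adjusted p under 0.05 under any alternative that tested it (the filter on dim probe sets removed Fgf2, Fgf7 and Fgf10). The smallest adjusted p was 0.590, for Fgfr2 in limma's test with a fixed replicate block, where its unadjusted p was 0.022. In that setting 3665 of 45037 probe sets had an unadjusted p under 0.05, and 0.590 was the smallest adjusted p of all probe sets. Of 102 recomputed differences, 96 kept their sign, but part of these could not change. The filter on dim probe sets, the trended and robust prior and the unmoderated test leave a difference as it was. So does the mean of a gene's probe sets for Fgf2 and Fgf10, which have 1 each. With the mean of a gene's probe sets, Fgf1 became 0.060, Fgf7 0.021, Fgfr2 -0.063 and Fgfr3 -0.0067, and Fgfr1, at -0.21, had the largest difference. It also had the largest with array weights, at -0.27, with Fgfr2 at -0.13. Leaving out 1 array moved Fgf2 between -0.12 and 0.044 and Fgf7 between -0.19 and 0.49. Of the numbers in the animal identifiers, 2 occur in both groups, and the labels do not say what they mark. Deviations of the same-numbered arrays correlated at 0.17 and -0.02, and those of differently numbered arrays between -0.44 and 0.37. With 3 arrays a group these values cannot show whether the numbers mark pairs, so the numbers were used only as an alternative. The fixed replicate block rests on the 4 same-numbered arrays. It gave -0.72 for Fgfr2 (-1.001 and -0.43 within the numbers), 0.70 for Fgf7 (1.35 and 0.058) and -0.088 for Fgfr1. For Fgf1 it gave -0.0014, for Fgf2 -0.18 and for Fgfr3 -0.040. The random replicate block gave -0.32 for Fgfr2, 0.21 for Fgf7 and -0.24 for Fgfr1. With these and the other alternatives 0 of all probe sets passed after adjustment, and 58 changed by over 2-fold with an unadjusted p under 0.05, the limits that the study used. The 934 probe sets at an unadjusted p under 0.05 became 306 with the filter on dim probe sets, where fewer were tested, 3543 with array weights, 3665 with the fixed replicate block, and 736 to 1621 with 1 array left out (1621 without deleted replicate 2 and 1454 without deleted replicate 3). The cause of these shifts was not tested. The median of the pathway genes, 0.03, ran from -0.02 to 0.09 with 1 array left out. With 3 arrays a group, differences of the size seen here cannot be told from 0.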
